A study of Mus musculus with 36 samples.

Results

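The genes described here are 7 genes of sterol synthesis and its feedback control, Hmgcs1, Idi1, Fdft1, Sqle, Lss, Cyp51 and Insig1, out of 56923 listed genes. They were chosen by symbol, and each had exactly 1 row in each of the 4 expression tables of a study of mouse natural killer (NK) cells. NK cells are lymphocytes that kill tumour cells and cells lacking MHC class I, and the study compared functional with desensitized states of them. It holds 36 libraries in 12 groups of 3. The first 18 libraries came from splenic CD27-CD11b+ NK cells of WT C57BL/6 (B2m+/+) or B2m-/- (KO) mice. They were sorted by 3 inhibitory receptors for MHC class I, Ly49C, Ly49I and NKG2A. TP cells carried all of them, SP cells carried Ly49I alone, and TN cells carried none. A second table holds NK cells sorted from WT splenocytes after 22 h of culture with ionomycin, which is a calcium ionophore, or with its vehicle. In the third, WT splenic NK cells spent 48 h in medium or on plate-bound antibodies. The antibodies were against NKp46 together with either NKG2D or DNAM-1, and all 3 targets are activating receptors. The fourth holds CD27-CD11b+ NK cells from subcutaneous tumours of MC38 B2m-/- colon carcinoma cells, 10 days after injection into B6 mice.

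Cholesterol is built from acetyl-CoA through the mevalonate pathway. HMG-CoA synthase (Hmgcs1) acts ahead of mevalonate, Idi1 and Fdps build isoprenoid chains, Fdft1 joins these to squalene, Sqle oxidises squalene, Lss closes the ring to lanosterol and Cyp51 removes a methyl group from it. When membrane sterol is low, the transcription factor SREBP-2 (Srebf2) is carried by its escort Scap to the Golgi, cut there, and turns on most of these genes together with genes of cholesterol uptake. Insig1, itself a target, holds Scap back when sterol is plentiful. Proliferating and activated lymphocytes are known to use this pathway to make membrane.

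RefSeq promoter windows (build GRCm38.p6) were matched for 5 of the 7 genes, all but Sqle and Fdft1. Each was searched over the 250 bases before the start, on both strands, for the sterol element core TCACNCCAC, the NF-Y box CCAAT, the Sp1 box GGGCGG and the E-box CACGTG. SREBPs bind sterol elements, usually beside NF-Y or Sp1. Hmgcs1 is shown because it alone of the 5 held the core, at bases 137 to 129 before the start. Insig1 is shown as the feedback gene and the only one of the 5 with the E-box. Lss is shown because its libraries overlapped in the antibody experiment and not in the ionomycin experiment. The sequences run 5′ to 3′ on the gene's strand, which is the plus strand for all 3, and capitals mark the core and the NF-Y boxes in either orientation (ATTGG on the reverse). They cover chr13:119690101-119690350, chr5:28071162-28071362 and chr10:76531355-76531587. The last 2 stop before the earliest GENCODE transcript start in the window.
Hmgcs1: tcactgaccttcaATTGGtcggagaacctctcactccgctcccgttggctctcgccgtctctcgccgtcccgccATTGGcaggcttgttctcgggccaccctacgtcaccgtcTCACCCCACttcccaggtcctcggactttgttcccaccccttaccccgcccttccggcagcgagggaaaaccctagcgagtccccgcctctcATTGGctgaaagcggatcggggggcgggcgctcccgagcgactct
Insig1: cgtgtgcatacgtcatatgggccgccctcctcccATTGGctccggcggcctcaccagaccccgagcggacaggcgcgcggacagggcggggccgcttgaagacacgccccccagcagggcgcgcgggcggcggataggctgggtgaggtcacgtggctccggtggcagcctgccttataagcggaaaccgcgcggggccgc
Lss: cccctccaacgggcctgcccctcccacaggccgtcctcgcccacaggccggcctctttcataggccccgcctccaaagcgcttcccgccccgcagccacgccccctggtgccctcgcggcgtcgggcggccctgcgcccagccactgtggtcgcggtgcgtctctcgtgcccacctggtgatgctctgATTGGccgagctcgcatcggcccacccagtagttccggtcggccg

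The core was found in 1 of the 5 windows, against 1.05% of all 32851 windows of the same length. The NF-Y box stood in all 5 windows, against 33.8% of all windows. The Sp1 box also stood in all 5, against 32.7% of windows, and the E-box in 1 of 5, against 6.02%. The last 105 bases of the Idi1 window and the last 49 of the Cyp51 window lie past the earliest GENCODE transcript start. Those stretches hold the NF-Y and Sp1 boxes of Idi1 and the NF-Y box of Cyp51. None of the marked cores and NF-Y boxes overlapped. These matches describe letters and not bound sites.

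All values are TPM, reads per gene scaled by length and by library. TPM keep no sequencing depth, so precision rests on the spread between 3 libraries, and in bulk RNA fewer cells of a type cannot be told apart from less RNA per cell. The number of genes above 0 ran from 12290 to 18096 per library. The summed level of 6 NK markers (Ncr1, Klrb1c, Klrk1, Eomes, Prf1, Gzma) was 3635 TPM or more in every library, with no marker at 0. B2m, the gene deleted in the KO mice, was at 2915 TPM or more in every WT library and between 73.9 and 128 TPM in the KO libraries. For 6 of the 9 libraries of the antibody experiment, the title and the table column named in the labels gave different groups. The column names were followed because they are attached to the values. Column names such as WT1 read as 1 mouse per number in the antibody and subset tables, which the other labels do not state, and if libraries of a group share a source the p-values below measure technical spread. The labels give the samples of a table the same batch date, and no comparison crosses tables.

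NK cells kept with activating antibodies had higher levels of most of these genes than NK cells in medium. Hmgcs1, Sqle, Fdft1 and Insig1 were higher in each of the 6 antibody libraries than in each of the 3 medium libraries, and Hmgcs1 and Sqle averaged about 2 and 3 times their medium level. Lss, which makes lanosterol, did not separate. In the limma fit without a replicate block, however, 0 of 7 genes passed an adjusted p of 0.05 against medium for either antibody pair, while 6 of 7 had an unadjusted p under 0.05 in each. The unadjusted share over all genes was 15.1% for the NKG2D pair and 18% for the DNAM-1 pair. Across all 13689 genes tested, 0.431% passed the adjusted threshold for the first and 0.782% for the second. Both comparisons share the same 3 medium libraries, so they are not independent of each other.

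**Figure D1:**
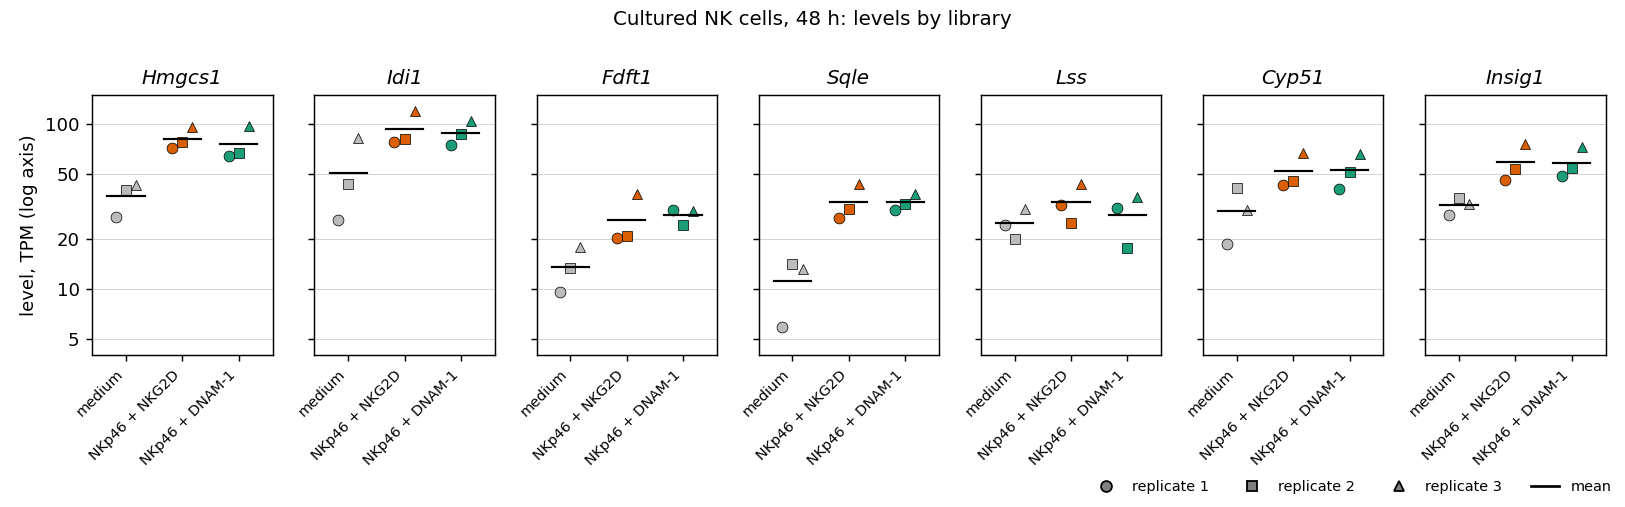
Level in TPM (log axis) of the 7 genes in NK cells after 48 h in medium or with plate-bound antibodies, 1 panel per gene. Points are libraries, shapes are replicate numbers and bars are means of 3; all antibody points lie above all medium points for Hmgcs1, Fdft1, Sqle and Insig1.

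Hmgcs1, which makes HMG-CoA, was at 27.3, 40.1 and 42.9 TPM in medium replicates 1, 2 and 3. It was at 71.9, 77.4 and 96.0 TPM with NKp46 and NKG2D antibodies, and at 63.8, 66.7 and 97.2 TPM with NKp46 and DNAM-1 antibodies. Neither antibody group overlapped medium. The limma difference from medium on the log2(TPM + 1) scale was 1.15 ± 0.22 (SE, adjusted p = 0.0704) for the NKG2D pair and 1.03 ± 0.22 (adjusted p = 0.0698) for the DNAM-1 pair.

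Sqle, a rate-limiting oxidase of the sterol branch, had the largest differences of the 7. It was at 5.87, 14.3 and 13.3 TPM in medium. With the NKG2D pair it was at 27.1, 30.6 and 43.5 TPM, and with the DNAM-1 pair at 30.0, 32.7 and 37.8 TPM. The lowest antibody library held more Sqle than any medium library. The log2 difference was 1.57 ± 0.32 (limma adjusted p = 0.0789) for the NKG2D pair and 1.58 ± 0.32 (adjusted p = 0.0565) for the DNAM-1 pair.

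Insig1, the sterol-sensing brake, was at 28.3, 35.6 and 32.8 TPM in medium, its narrowest group. It was at 45.9, 53.8 and 76.3 TPM with the NKG2D pair and at 48.4, 53.9 and 73.1 TPM with the DNAM-1 pair. No library overlapped between medium and either pair, and the log2 difference was 0.82 for both (limma adjusted p = 0.152 and 0.119). Fdft1, squalene synthase, was at 9.56, 13.5 and 18.1 TPM in medium, at 20.5, 21.1 and 37.5 TPM with the NKG2D pair and at 30.3, 24.6 and 29.9 TPM with the DNAM-1 pair. Its groups were apart as well, with log2 differences of 0.88 (limma adjusted p = 0.208) and 1.03 (adjusted p = 0.126).

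Idi1, the isopentenyl diphosphate isomerase, overlapped because of its medium spread. It was at 26.1, 43.2 and 82.1 TPM in medium, at 78.3, 81.2 and 121 TPM with the NKG2D pair and at 74.3, 86.6 and 105 TPM with the DNAM-1 pair. Medium replicate 3 lay above 2 of 3 libraries of the NKG2D pair and 1 of 3 of the DNAM-1 pair. The log2 differences were 1.00 (limma adjusted p = 0.233) and 0.94 (adjusted p = 0.214).

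Cyp51, lanosterol demethylase, was at 18.7, 40.9 and 30.0 TPM in medium. It was at 42.9, 45.4 and 67.3 TPM with the NKG2D pair, all above medium, and at 40.5, 51.3 and 65.6 TPM with the DNAM-1 pair, where 1 library fell just inside the medium range. The log2 differences were 0.81 (limma adjusted p = 0.244) and 0.83 (adjusted p = 0.199). Lss, lanosterol synthase, overlapped in both: 24.5, 20.2 and 30.7 TPM in medium, 32.2, 25.3 and 43.2 TPM with the NKG2D pair, and 30.9, 17.7 and 36.2 TPM with the DNAM-1 pair. Its log2 differences were 0.39 (95% interval -0.27 to 1.05) and 0.12 (-0.54 to 0.79), with limma adjusted p of 0.562 and 0.875.

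In count, 5 of 7 genes lay wholly above medium with the NKG2D pair, against 7.5% of all genes tested, and 4 of 7 with the DNAM-1 pair, against 9.46%. All 6 antibody libraries lay above all 3 medium libraries for 4 of 7 genes, against 5.19% of all genes. The median log2 difference of the 7 genes was 0.88 with the NKG2D pair and 0.94 with the DNAM-1 pair, and the medians over all genes were -0.044 and -0.042. Replicate 3 was the highest of its group for all 7 genes with the NKG2D pair and for 6 of 7 with the DNAM-1 pair, and medium replicate 1 was the lowest in medium for 6 of 7.

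With replicate number as a block, Hmgcs1 (limma adjusted p = 0.0114) and Sqle (0.0246) passed for the NKG2D pair, and Hmgcs1 (0.0119), Sqle (0.0162) and Insig1 (0.0338) for the DNAM-1 pair. That made 2 and 3 of 7 genes higher, against 0.986% and 2.02% of all genes higher under the same block. Medium replicate 3 also decided calls. Without it and without the block, Hmgcs1 and Idi1 passed for the NKG2D pair (limma adjusted p = 0.0453 for both), and Hmgcs1 (0.045), Idi1 (0.0403) and Sqle (0.0408) passed for the DNAM-1 pair, where 1.88% and 3.77% of all genes passed. With the block and without that library, a choice made after seeing the data, 0 of 7 passed for the NKG2D pair. There the limma adjusted p was 0.055 for Hmgcs1 and 0.0716 for Sqle. For the DNAM-1 pair, Hmgcs1 and Idi1 passed under that choice, for which the share of all genes is not given here. With the libraries grouped by their titles, 0 of 7 passed, and the log2 difference of Sqle was 0.48 (limma adjusted p = 0.967) for the NKG2D pair and 0.68 (adjusted p = 0.728) for the DNAM-1 pair.

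Medium and antibody libraries also differed in other ways. Between 13555 and 14674 genes were above 0 in medium, and between 16107 and 18096 with antibodies. The summed level of 4 T cell markers was 20.99 to 59.99 TPM in medium and 12.8 to 25.0 TPM with antibodies, with Cd4 at 0 in all 9 libraries and Cd8a at 0 in 6. Myeloid markers summed to at most 11.5 TPM, and NK markers to 9714 to 10630 TPM in medium and 9782 to 11020 TPM with antibodies. Of the 6 NK markers, 1 lay wholly above medium and 2 wholly below with each pair. Over all genes, 7.5% and 9.46% lay above and 9.84% and 11.6% below. Carcinoma markers summed to 0 TPM in medium and 0.81 to 4.33 TPM with antibodies. The part of these in the sterol gene levels was not tested.

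The direct comparison of the 2 antibody pairs gave 0 of 7 genes at an adjusted p of 0.05 in limma and 0 at an unadjusted p under 0.05. Over all genes, 0.0146% passed the adjusted threshold and 1.22% had an unadjusted p under 0.05. The log2 differences ran from -0.15 for Fdft1 to 0.27 for Lss. Every 95% interval lay between -0.79 and 0.93, so differences within those bounds remain possible.

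The rest of the pathway was described from lists of other sterol genes. Of 15 other synthesis genes, 1 rose with each pair, Fdps, which makes farnesyl diphosphate. Fdps was at 29.1, 24.4 and 26.9 TPM in medium, at 61.8, 60.03 and 86.9 TPM with the NKG2D pair and at 54.2, 66.5 and 77.0 TPM with the DNAM-1 pair, with no overlap. For 5.19% of all genes, all 6 antibody libraries lay above all 3 medium libraries. Its log2 difference was 1.33 (limma adjusted p = 0.0159) and 1.26 (adjusted p = 0.0222). These calls were lost without any 1 library of the NKG2D pair (adjusted p from 0.0563 to 0.0737), and for the DNAM-1 pair without medium replicate 2 or without its own replicate 2 or 3 (0.0547 to 0.12). Without the variance trend Fdps missed the threshold for the DNAM-1 pair (0.0518). Grouped by title, its log2 difference was 0.00 and 0.29. In all, 13 of 15 had a positive difference with each pair, against 45.6% and 45.9% of all genes, and the list's median was 0.38 and 0.62.

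Of 10 uptake and transport genes, 7 were tested and 0 passed for either pair, with 3 at an unadjusted p under 0.05 in limma for each, beside 15.1% and 18% of all genes. Directions were mixed, with 3 positive and 4 negative for each pair and list medians of -0.01 and -0.07. With each pair 2 lay wholly above medium and 1 wholly below. Among all genes, 7.5% and 9.46% lay above and 9.84% and 11.6% below. With the replicate block Stard4, a cytosolic sterol carrier, passed (log2 1.03 and 0.89, limma adjusted p = 0.0246 and 0.0256).

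Of 9 SREBP control genes, 0 passed for either pair with or without the block, with 4 and 2 at an unadjusted p under 0.05 in limma, beside the same shares of all genes. Differences were negative for 6 of 9 with the NKG2D pair and 5 of 9 with the DNAM-1 pair, with medians of -0.27 and -0.20. With each pair 1 gene, Srebf2, lay wholly above medium and 2 wholly below. Srebf2 was at 88.1, 87.6 and 81.8 TPM in medium, at 107, 114 and 123 TPM with the NKG2D pair and at 112, 118 and 116 TPM with the DNAM-1 pair. All 6 antibody libraries lay above medium, as for 5.19% of all genes, with log2 differences of 0.41 (limma adjusted p = 0.135) and 0.42 (adjusted p = 0.105). Srebf1, whose SREBP-1c form drives fatty acid genes, had log2 differences of -0.27 (limma adjusted p = 0.535) and -0.40 (adjusted p = 0.322).

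**Figure D2:**
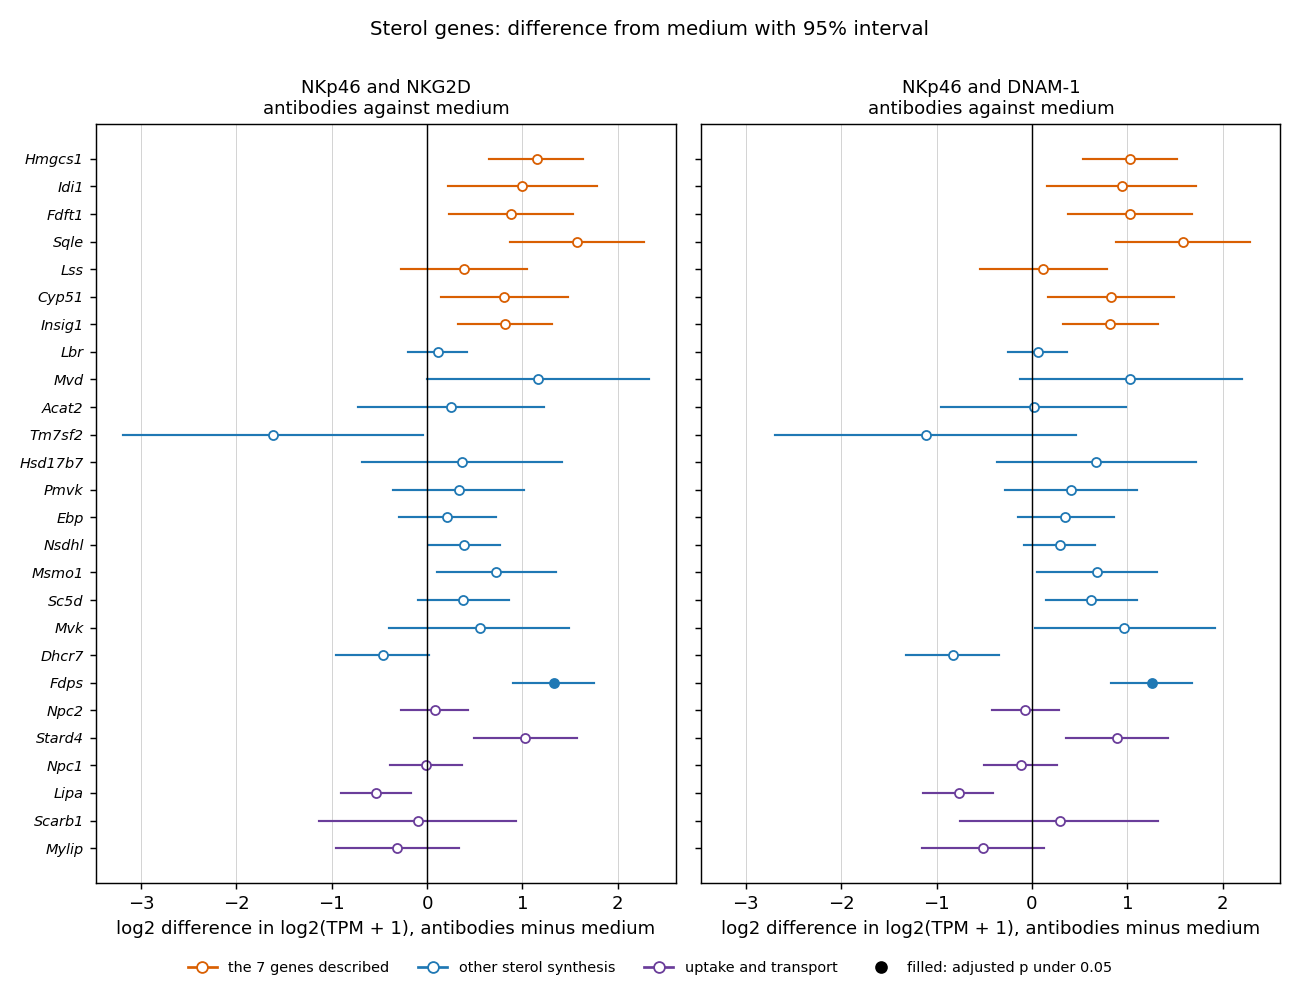
Difference from medium on the log2(TPM + 1) scale with its 95% interval (limma, no replicate block) for the 7 genes and tested genes of the synthesis and uptake lists. All 7 genes lie to the right of 0 in both panels, with the intervals of Lss crossing 0; filled points, Fdps alone, had an adjusted p under 0.05.

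Among the genes whose pattern over the 9 libraries was most like the mean standardised level of the 7, of 11635 ranked, were Slamf7 (Pearson r = 0.988), Ube2s (0.986), Incenp (0.985) and Cdca3 (0.981). Slamf7 is an activating receptor of NK cells, and Incenp is a chromosomal passenger protein of mitosis. Scd2 ranked 17th (r = 0.97), while Dhcr7, the last reductase of the pathway, ranked 10220th (r = -0.737). Between the 7 genes themselves, all 21 pairs correlated positively over the 9 libraries, with a median r of 0.90. These points share libraries and the medium-to-antibody difference, and the values are given as a description.

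Ionomycin-treated NK cells had lower Lss than vehicle-treated cells, and the other 6 genes overlapped between the groups. No gene of the 7 passed the adjusted threshold in limma, where 2.91% of all 14372 genes passed. At an unadjusted p under 0.05 there was 1 of 7, Lss, a share near the 15.1% of all genes. Lss was at 26.4, 15.3 and 19.9 TPM with ionomycin and at 93.5, 133 and 42.7 TPM with vehicle. Every ionomycin library was below every vehicle library, as for 9.57% of all genes. The log2 difference was -1.96 ± 0.44 (SE, limma adjusted p = 0.0536). Lss passed without vehicle replicate 3 (log2 -2.42, adjusted p = 0.0388), where 2.38% of all genes passed, and with genes below a mean of 5 TPM left out (adjusted p = 0.0425), where 4.58% passed.

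**Figure D3:**
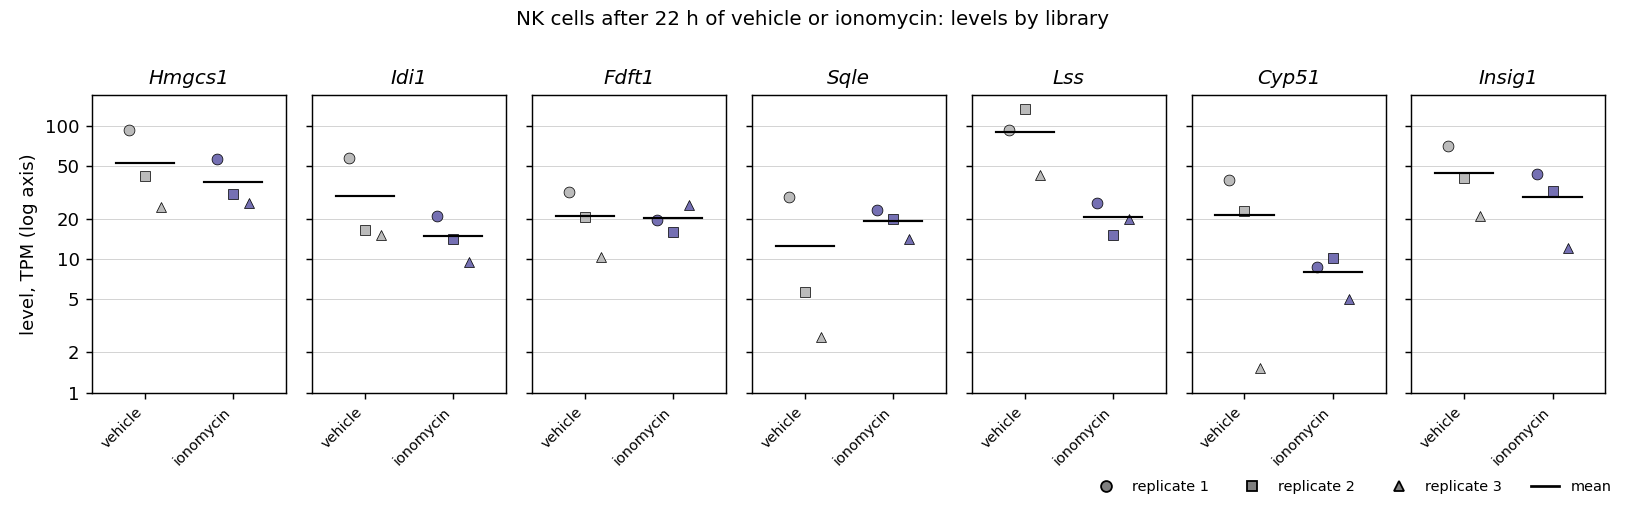
Level in TPM (log axis) of the 7 genes in NK cells after 22 h with vehicle or ionomycin. Points are libraries, shapes are replicate numbers and bars are means of 3; the vehicle libraries spread widely, and only Lss has all ionomycin points below all vehicle points.

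The vehicle libraries differed strongly among themselves. The 7 genes summed to 414, 281 and 118 TPM in vehicle replicates 1, 2 and 3, and to 199, 139 and 112 TPM with ionomycin. Cyp51 was at 39.3, 22.9 and 1.54 TPM in vehicle and at 8.80, 10.2 and 5.04 TPM with ionomycin. Sqle was at 29.4, 5.72 and 2.59 TPM in vehicle and at 23.4, 20.1 and 14.1 TPM with ionomycin. In both genes the single vehicle group spanned the whole ionomycin range.

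Idi1 was at 57.2, 16.7 and 15.1 TPM in vehicle and at 21.1, 14.2 and 9.56 TPM with ionomycin. Hmgcs1 was at 92.2, 41.9 and 24.5 TPM in vehicle and at 56.3, 30.6 and 26.2 TPM with ionomycin. Vehicle replicate 1 was the highest of the 6 libraries for both. Fdft1 was at 32.1, 20.9 and 10.4 TPM in vehicle and at 19.8, 16.0 and 25.3 TPM with ionomycin, and Insig1 at 70.7, 40.4 and 21.2 TPM against 43.4, 32.3 and 12.1 TPM. Over the 6 genes other than Lss the log2 differences ran from -0.74 for Idi1 to 1.13 for Sqle, with limma adjusted p from 0.546 to 0.977. The median of all 7 was -0.59, against -0.004 over all genes.

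In the surrounding pathway, Npc1, which exports cholesterol from lysosomes, rose with ionomycin. It was at 154, 174 and 132 TPM with ionomycin and at 78.5, 67.1 and 66.6 TPM with vehicle (log2 1.10, limma adjusted p = 0.0376). Insig2, the second Scap-retaining protein, fell from 61.6, 63.4 and 53.2 TPM to 27.3, 13.0 and 17.3 TPM (log2 -1.64, limma adjusted p = 0.0412). Soat2, a cholesterol-esterifying enzyme, fell from 21.1, 37.3 and 30.0 TPM to 4.66, 4.65 and 3.66 TPM (log2 -2.49, limma adjusted p = 0.02). The groups did not overlap for any of these 3, while 10.5% of all genes lay wholly above vehicle and 9.57% wholly below. The 3 were named because they passed in the same libraries, so their separation adds no separate evidence. Leaving out single libraries ended the calls of Npc1 and Soat2 in every case but vehicle replicate 1 (limma adjusted p from 0.0633 to 0.162, and from 0.0661 to 0.144), and that of Insig2 in every case (0.0891 to 0.218). With the replicate block, Npc1 and Insig2 no longer passed (0.0534 and 0.0527). With no filter on low values none of the 3 passed (limma adjusted p = 0.0552 for Npc1, 0.0844 for Insig2 and 0.06 for Soat2). Without the variance trend Npc1 (0.146) and Insig2 (0.0993) did not pass, and Insig2 also missed the threshold under median-of-ratios rescaling (0.0509) and quantile normalization (0.0521).

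Of 15 other synthesis genes 0 passed, with 2 at an unadjusted p under 0.05 in limma, a share near the 15.1% of all genes. Differences were positive for 3 and negative for 12 of them, with a list median of -0.42, while 49.7% of all genes were positive. Of 9 tested uptake genes Npc1 alone passed, of 9 SREBP control genes Insig2 alone, and of 7 tested efflux and storage genes Soat2 alone. Both Srebf2 (log2 -0.15) and Srebf1 (log2 0.18) overlapped, with limma adjusted p of 0.895 and 0.863.

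Cell type markers also differed between these libraries. NK markers summed to 3635 to 4764 TPM in ionomycin libraries and 6567 to 11570 TPM in vehicle libraries, and 2 of the 6, Ncr1 and Gzma, fell in limma (adjusted p = 0.0045 and 0.00767). Myeloid markers were found mainly in replicate 3 of both groups, at 107 TPM in the ionomycin library and 239 TPM in the vehicle library, and at most 7.11 TPM in the other 4 libraries. T cell markers summed to at most 19.3 TPM, with Cd4 and Cd8a at 0 in all 6 libraries. Vehicle replicate 3 was the vehicle library lowest in all 7 sterol genes. The part of these markers in the sterol gene levels was not tested.

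In freshly sorted splenic NK subsets, the libraries of TP, SP and TN cells overlapped for the 7 genes, apart from Insig1 in WT TN against SP cells and Cyp51 in KO SP against TP cells. KO and WT libraries of the same subset overlapped for all 7. Over all genes, 18.3% did not overlap between KO and WT for TP cells, 18.9% for SP cells and 13.7% for TN cells. None of the 7 passed in any of the 10 subset comparisons in limma, and none had an unadjusted p under 0.05. The unadjusted share over all genes was lowest in KO TN against KO SP, at 2.77%. It was 12.1% in WT TN against WT SP and slightly higher in WT TN against WT TP. Between KO and WT mice it was 11.8% for TP, 11.7% for SP and 10.5% for TN cells. At such shares, 0 of 7 does not set these genes apart from the rest. Among all 12018 genes tested, 1.31% passed in WT TN against TP, 0.191% in WT SP against TP and 0.383% in WT TN against SP. In KO mice the shares were 0.524%, 0.2% and 0.0416% for the same contrasts. Between KO and WT mice, 1.59% of genes passed for TP cells, 1.35% for SP cells and 0.716% for TN cells, and 0.025% passed for the interaction of genotype with the TN-TP difference.

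Mean Hmgcs1 in WT mice was 22.5 ± 4.41 (SD, n = 3) TPM for TP, 20.6 ± 3.13 TPM for SP and 20.4 ± 4.90 TPM for TN. The KO means were 16.3 ± 3.43, 21.3 ± 2.85 and 21.8 ± 4.84 TPM for the same subsets. Its lowest group, KO TP (19.8, 16.2 and 13.0 TPM), overlapped WT TP (18.0, 26.8 and 22.7 TPM), with a log2 difference of -0.44 (limma adjusted p = 0.485). Sqle was the lowest of the 7 in all 18 libraries, between 0.31 and 2.67 TPM. Its group means ran from 0.757 TPM in WT SP to 1.73 TPM in KO TN, and their libraries overlapped.

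Insig1 was at 17.2, 29.3 and 18.4 TPM in WT SP and at 12.9, 10.8 and 17.1 TPM in WT TN cells. Every TN library lay below every SP library, as for 6.11% of all genes, with a log2 difference of -0.62 (95% interval -1.31 to 0.08, limma adjusted p = 0.479). WT TP cells, at 16.9, 25.7 and 7.63 TPM, overlapped both. In KO mice the SP libraries (17.2, 14.9 and 17.6 TPM) and TN libraries (15.2, 10.1 and 16.2 TPM) overlapped.

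The KO TP libraries held Cyp51 at 10.7, 7.31 and 6.67 TPM, and the KO SP libraries at 5.13, 4.62 and 5.13 TPM. Every SP library lay below every TP library, as for 6.14% of all genes, with a log2 difference of -0.61 (95% interval -1.72 to 0.51, limma adjusted p = 1). In WT mice the SP libraries of Cyp51 spread from 1.62 to 14.7 TPM, and the TP libraries (7.94, 4.35 and 4.10 TPM) lay within that range.

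Lss group means ran from 14.9 ± 2.42 (SD, n = 3) TPM in KO TN to 24.7 ± 11.7 TPM in KO TP, and its libraries from 8.92 to 36.8 TPM. Fdft1 group means ran from 8.58 ± 2.48 TPM in KO TP to 14.5 ± 7.71 TPM in WT TN, and those of Idi1 from 3.96 ± 1.28 TPM in KO SP to 7.12 ± 6.36 TPM in KO TP. For all 3 genes, neighbouring groups in that order overlapped. Over the 10 comparisons the median log2 difference of the 7 genes ran from -0.19 to 0.15, and that of all genes from -0.027 to 0.037. For the interaction, log2 values ran from -0.76 for Sqle to 0.74 for Lss, with limma adjusted p of 0.84 or more.

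**Figure D4:**
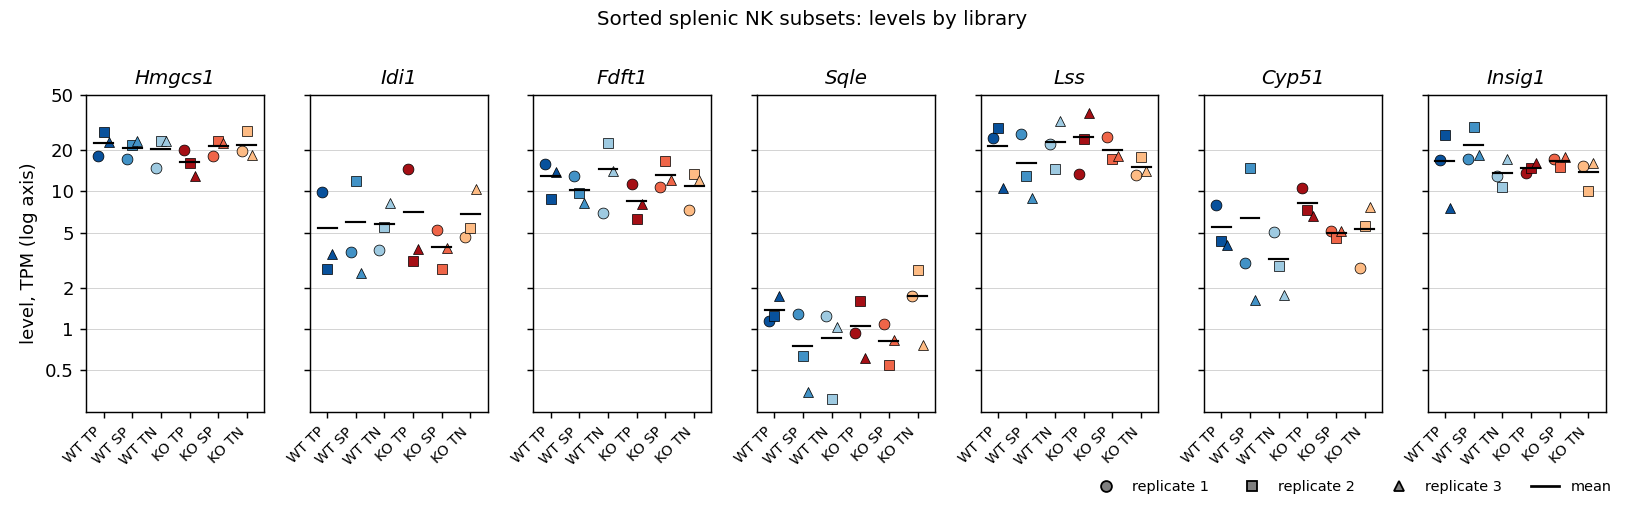
Level in TPM (log axis) of the 7 genes in sorted splenic NK subsets of WT and B2m-/- (KO) mice. Points are libraries, shapes are replicate numbers and bars are means of 3; KO and WT libraries of the same subset overlap for all 7 genes, and Sqle is the lowest gene in each library.

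Among control genes, group means of Srebf2 ran from 36.5 to 44.9 TPM and those of Srebf1 from 71.4 to 118 TPM, and neither passed in any of the 10 comparisons. Of the other synthesis genes, 14 of 15 were tested and Sc5d, a lathosterol desaturase, alone passed, in 1 comparison. Sc5d rose in KO SP cells (47.7, 49.2 and 40.5 TPM) over WT SP cells (32.0, 15.7 and 22.4 TPM), with a log2 difference of 0.99 (limma adjusted p = 0.033). That call ended without WT SP replicate 2 or 3 or any single KO SP library (adjusted p from 0.0673 to 0.149), with no filter on low values (0.0579) and without the variance trend (0.0511).

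KO TP libraries carried more markers of other cells than the rest. Myeloid markers summed to 43.6 to 182 TPM in KO TP cells, against 11.6 to 14.6 TPM in WT TP and at most 6.87 TPM in the other 4 groups. B cell markers summed to 16.5 to 23.0 TPM in KO TP and at most 8.35 TPM elsewhere, and T cell markers to 9.23 to 11.3 TPM against at most 8.21 TPM. Their part in the levels of KO TP cells was not tested.

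The 7 genes did not vary together across the subsets. Of 21 pairs, 10 correlated positively over the 18 libraries, with a median r of 0.00. Their mean standardised level was most like Ddx39a (Pearson r = 0.83), Ankrd13a (0.829), Acly (0.824), Slc33a1 (0.809) and Cdc23 (0.798), among 12011 ranked genes. Acly supplies cytosolic acetyl-CoA, the precursor of the pathway, and Slc33a1 carries acetyl-CoA into the endoplasmic reticulum. In the ionomycin table, 20 of 21 pairs correlated positively over 6 libraries, with a median r of 0.57.

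In NK cells from MC38 B2m-/- tumours Insig1 was the highest of the 7 genes in all 3 libraries, at 71.5, 73.8 and 77.5 TPM. Hmgcs1 was at 24.6, 28.6 and 37.8 TPM, Cyp51 at 42.9, 28.4 and 24.4 TPM, and Lss at 13.0, 34.0 and 42.7 TPM in replicates 1, 2 and 3. The other 3 were lower. Idi1 was at 3.94, 9.41 and 16.9 TPM, Sqle at 5.23, 7.01 and 13.0 TPM and Fdft1 at 3.02, 19.1 and 10.0 TPM. This table holds a single group, so no comparison was made. Its column names carry the terms B2MKO and SP, which the sample titles do not explain. B2m itself was at 3929 to 5196 TPM in the tumour NK libraries. Carcinoma markers summed to at most 2.71 TPM and myeloid markers to at most 34.9 TPM, beside NK markers at 8510 to 9280 TPM.

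**Figure D5:**
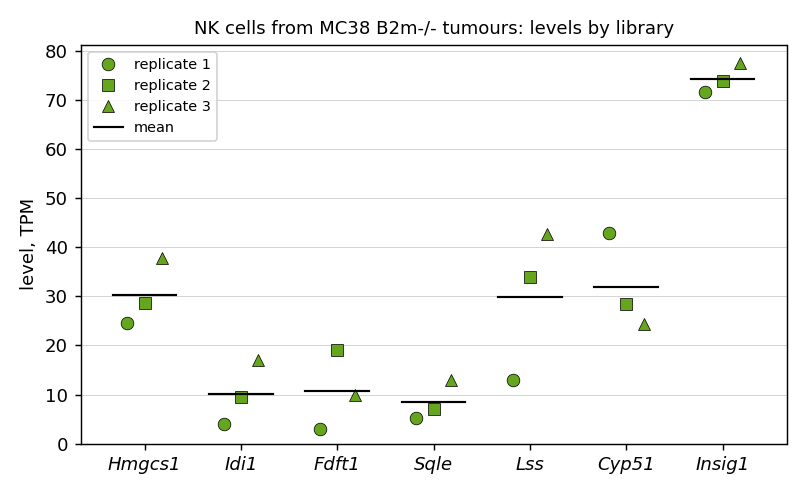
Level in TPM of the 7 genes in CD27-CD11b+ NK cells from MC38 B2m-/- tumours. Points are the 3 libraries and bars their means; Insig1 lies between 71.5 and 77.5 TPM, above every other gene in each library.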

How the data were processed

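RNA was sequenced from mouse NK cells in 36 libraries. Per the labels' protocols, 50 ng of RNA with a RIN over 7 went into poly(A) libraries. The authors deposited TPM in 4 tables. STAR, RSEM and build GRCm39 appear in the submitters' processing notes, without versions or order. TPM hide depth and depend on the other genes of a library.

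Only genes whose mean reached 1 TPM across the libraries of a table were tested, and all 7 did in each table. Limma 3.58.1 in R 4.3.3 fitted group means to log2(TPM + 1), which understates the change of low genes, with an intensity trend. Tests were two-sided, with Benjamini-Hochberg adjustment over all genes within each of 14 comparisons and a threshold of 0.05. With 3 libraries against 3, an exact permutation test of 1 gene cannot go below 0.1. The fit was tested on simulated data. The 7 genes and all lists were chosen with earlier results of these data known. Every comparison names the 7 genes, Srebf1, Srebf2 and list genes that passed, and the antibody and subset tables also the 5 genes most alike in pattern. Some genes under this rule are not reported here, though list counts include them. Genes named for calls under the replicate block alone (Stard4, Scd2) were chosen after their values were seen.

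Alternatives covered the pseudocount, filter, scaling, variance trend, replicate block, compared groups, titles as groups and single libraries left out. Same-numbered antibody libraries deviated together weakly (mean correlation 0.064 against -0.032 for others, 1 of 9 pairs over 0.1).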

Additional observations from a re-analysis of the deposited data

How the results depend on the processing

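The counts of the 7 genes that passed changed in 3 of 14 comparisons. With the replicate block, 2 passed for the NKG2D pair and 3 for the DNAM-1 pair against medium, all higher. Over all genes, 0.986% and 2.02% were higher under the same block. The block changed no other count of the 7. For the DNAM-1 pair, a filter at a mean of 5 TPM or quantile normalization each gave 1, Sqle. An alternative chosen after seeing the data, without medium replicate 3 and with the replicate block, gave 0 for the NKG2D pair, where Hmgcs1 and Sqle had passed with the block alone, and 2 for the DNAM-1 pair, Hmgcs1 and Idi1, where Sqle and Insig1 no longer passed. For ionomycin, the 5 TPM filter gave 1, Lss, where 4.58% of all genes passed. All-gene shares are not given here for the DNAM-1 filter and quantile fits or for the alternative chosen after seeing the data. Those counts therefore stand without a background. Over fits that left out 1 library each, the count ran from 0 to 2 for the NKG2D pair and from 0 to 3 for the DNAM-1 pair. For ionomycin it ran from 0 to 1, and it stayed at 0 in the other 11 comparisons. In the same fits, the number of all genes passing ran from 28 to 257, from 26 to 516 and from 3 to 342, respectively. The cause of these changes was not tested.

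Of the single values of the 7 genes, 1409 alternative values kept their side of the threshold, 16 passed it newly, and 0 turned direction with a call. None of the 7 passed in a main fit, so keeping a side meant staying uncalled. Signs without a call did turn, in 7 of 19 alternatives for Idi1 in the interaction and 5 of 14 for Insig1 in KO TN against WT TN. Against medium, the sign turned in 0 of 16 for Hmgcs1 and for Sqle with either antibody pair. Of those of the other pathway genes examined, 729 kept their side, 8 passed newly and 51 lost a call. Fits on the compared groups alone ended the calls of Fdps, Fasn, Scd2 and Sc5d (adjusted p from 0.0827 to 0.245), with fewer libraries to estimate the spread. TPM give no depth, so low genes such as Sqle in the subsets carry an unknown counting error.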

Other observations

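Fatty acid genes, a branch driven mainly by SREBP-1, were described from a list of 12. In sorted subsets, Fasn, the fatty acid synthase, rose in WT TN over WT TP cells. It was at 104, 137 and 121 TPM in TN and at 68.8, 78.8 and 63.2 TPM in TP cells, with no overlap (log2 0.77, limma adjusted p = 0.00714). For 6.62% of all genes, every WT TN library lay above every WT TP library. In KO mice Fasn overlapped between TN (81.4, 98.2 and 96.2 TPM) and TP cells (83.5, 94.9 and 86.5 TPM). The test of the genotype difference itself gave a log2 value of 0.71 (limma adjusted p = 0.451), so a difference between the genotypes did not pass.

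Scd2, a stearoyl-CoA desaturase, fell in KO TN cells (98.6, 99.3 and 119 TPM) relative to WT TN cells (163, 183 and 147 TPM), with a log2 difference of -0.63 (limma adjusted p = 0.0165). Without WT TN replicate 1 or 2 or KO TN replicate 1 or 2 the adjusted p ran from 0.0547 to 0.0881. In the antibody table Scd2 was at 8.61, 15.6 and 15.8 TPM in medium and at 25.5 to 40.2 TPM in the 6 antibody libraries. It passed with the replicate block for both pairs (log2 1.10 and 1.24, limma adjusted p = 0.0432 and 0.0202) and not without it (0.129 and 0.0735). Among 7 genes of the isoprenoid branches, 0 passed for either antibody pair or ionomycin, and 0 had an unadjusted p under 0.05 in limma. The unadjusted shares over all genes were 15.1% for the NKG2D pair, 18% for the DNAM-1 pair and 15.1% for ionomycin.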
